A study of Homo sapiens with 3 samples.

Results

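PolyA RNA was measured in 3 libraries labelled as replicates 1, 2 and 3 of wild-type HepG2, an established cell line from a human liver cancer, cultured in DMEM with serum. No treatment is named and there is no second condition, so genes were set side by side within libraries. The genes described here are the 4 fibroblast growth factor (FGF) receptors FGFR1, FGFR2, FGFR3 and FGFR4, the ligands FGF19, FGF21 and FGF2, and the klotho coreceptors KLB and KL. They were taken by gene name from the deposited tables, and each of the 9 had 1 row among the 39320 gene rows used. Values are in TPM, a level scaled to the library's total and to transcript length, which can be compared between genes. Nothing in the labels says that the libraries came from separate cultures, so the SD given here may be technical.

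FGF receptors are receptor tyrosine kinases that bind secreted FGFs outside the cell and start the RAS and MAP kinase cascade within it. Most FGFs act near their source and need heparan sulfate on the cell surface. FGF19 and FGF21 are hormones that bind heparan sulfate weakly and need KLB, beta-klotho, beside a receptor, while KL, alpha-klotho, serves the hormone FGF23. In hepatocytes, FGFR4 with KLB receives FGF19 from the gut, which lowers bile acid synthesis by CYP7A1. FGF19 is also made by some liver cancers, and FGF21 is made by the liver itself.

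The label was checked against marker genes before the FGF genes were described. None of 16 genes for secreted hepatocyte proteins reached 1 TPM in any library, with a summed level of 0.358 to 0.620 TPM per library, and 11 of them were listed at 0 in all 3, namely ALB, APOA1, APOA2, APOB, APOC3, APOH, SERPINA1, FGA, FGB, FGG and AHSG. AFP, a fetal liver protein that marks many liver cancers, was at 0, 0.0239 and 0.0248 TPM in replicates 1, 2 and 3. Each of 12 housekeeping genes reached 10 TPM in all 3 libraries. At least 1 TPM in every library was also reached by 3 of 8 epithelial genes (summed level 4573 to 4831 TPM, with KRT8 highest at 2609.6 ± 28.6 TPM and ESRP1 at 0 in all 3) and by 5 of 8 mesenchymal genes (711 to 804 TPM, VIM at 694 ± 48.1 TPM, SPARC at 0 in all 3). The same held for 2 of 8 endothelial genes (66.9 to 71.2 TPM, ESAM at 66.8 ± 2.12 TPM, KDR at 0 in all 3) and 2 of 8 blood genes (49.2 to 53.3 TPM, HBA1 at 39.6 ± 1.65 TPM, with PTPRC, LYZ and CD3E at 0 in all 3). The shares of the epithelial, mesenchymal, endothelial and blood genes were 37.5, 62.5, 25 and 25%, against 59.5% of protein-coding rows. The hepatocyte markers did not bear out the label of a liver cancer line, which is kept here only as a name. Whether the cells were HepG2 was not tested, so the FGF values below should not be read as a profile of HepG2. They are those of a culture in which the defining secreted genes of hepatocytes were at or near 0. How far this bears on the FGF genes was not tested.

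In these libraries FGFR1, FGFR3, FGF2 and FGFR4 were present at between 9 and 39 TPM, and FGFR2, KLB, KL, FGF21 and FGF19 were below 1 TPM in every library. The 4 of 9 genes with at least 1 TPM in every library compare with 33.8% of all 39320 gene rows and 59.5% of the 18739 protein-coding rows. None of the 9 genes had a range of log2(TPM + 1) above 1 between libraries, against 0.649% of all gene rows. This range could not be reached by the 5 members below 1 TPM, nor by other rows below 1 TPM, so the count bears on the 4 higher members alone. Fewer cells that make an RNA and less RNA per cell cannot be told apart in such bulk RNA.

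**Figure D1:**
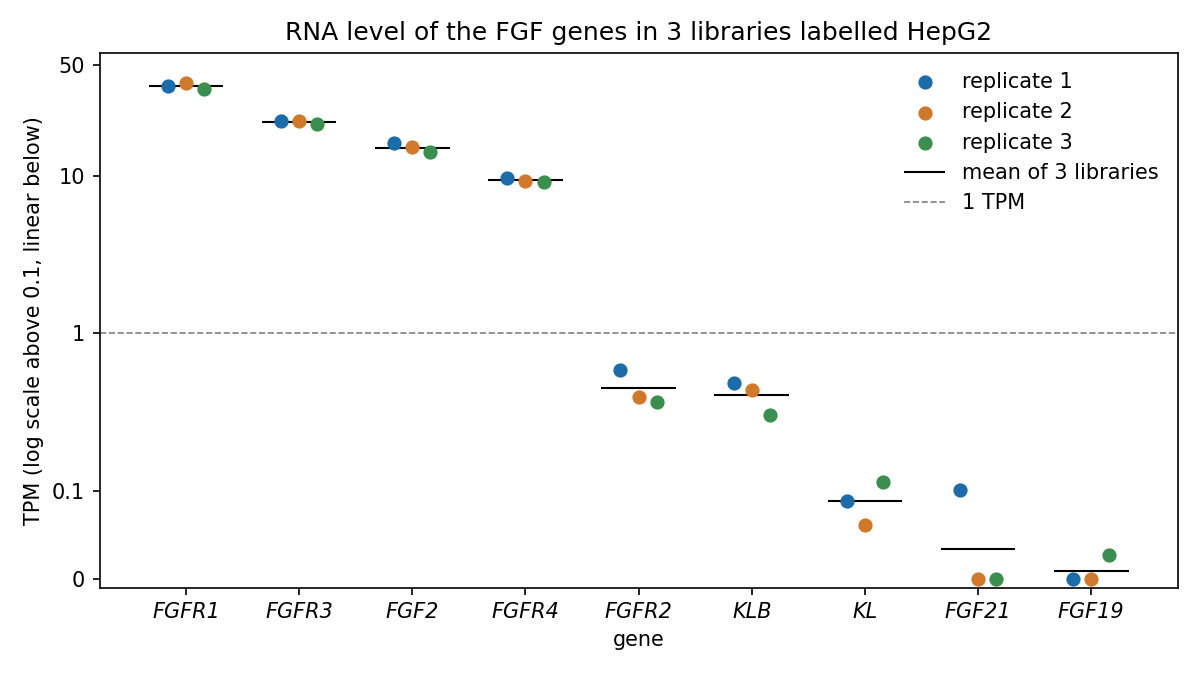
TPM of each FGF gene (y axis, log scale above 0.1 TPM and linear below) in replicates 1, 2 and 3 (points), with the mean of 3 libraries (line) and a dashed line at 1 TPM. FGFR1, FGFR3, FGF2 and FGFR4 lie at 9.07 TPM or above in every library, and the other 5 genes lie at 0.585 TPM or below.

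FGFR1, the receptor with the highest level, binds FGF2 and many other FGFs and lies at chr8:38411138-38468834 on the minus strand (GRCh38, as are all coordinates here). It had 37.0, 38.6 and 35.7 TPM in replicates 1, 2 and 3, or 37.1 ± 1.46 TPM (SD, n = 3). Its mean exceeded that of 72.1% of the 13753 genes whose mean reached 1 TPM.

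FGFR3, at chr4:1793299-1808872 on the plus strand, is best known for restraining bone growth and for mutations in bladder cancer. It had 22.1, 22.1 and 21.4 TPM in replicates 1, 2 and 3, a mean of 21.9 ± 0.443 TPM (SD, n = 3), and exceeded 59.3% of the same genes. The values of FGFR3 lay below those of FGFR1 in every library, with no overlap.

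FGFR4, the receptor that hepatocytes use for FGF19, lies at chr5:177086872-177098144 on the plus strand. It had 9.65, 9.29 and 9.07 TPM in replicates 1, 2 and 3, or 9.34 ± 0.291 TPM (SD, n = 3), and exceeded 37.2% of these genes. So FGFR4 had over 9 TPM in libraries where the 16 hepatocyte genes on the marker list were below 1 TPM, and it was below both FGFR1 and FGFR3.

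FGFR2, whose splice forms serve epithelial or mesenchymal cells, lies at chr10:121478330-121598458 on the minus strand. Its levels were 0.585, 0.396 and 0.366 TPM in replicates 1, 2 and 3, with a mean of 0.449 ± 0.119 TPM (SD, n = 3). Every value of FGFR2 was below every value of the other 3 receptors.

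Within each library the receptors kept the order FGFR1, FGFR3, FGFR4 and FGFR2. FGFR1 was 1.70 ± 0.0441 times FGFR3 and 3.97 ± 0.164 times FGFR4 by TPM, and FGFR3 was 2.34 ± 0.0425 times FGFR4 (SD, n = 3). FGFR1 was 86.0 ± 19.7 times FGFR2, and the 3 ratios were 63.2, 97.4 and 97.4. On the log2(TPM + 1) scale, which lowers differences that involve weak genes, FGFR1 exceeded FGFR2 by 4.72 ± 0.12, FGFR3 by 0.74 ± 0.04 and FGFR4 by 1.88 ± 0.06 (SD, n = 3). Each of the 6 receptor pairs differed in the same direction in 3 of 3 libraries, for which p was 0.25 by exact permutation of signs (two-sided), or 0.275 after Benjamini-Hochberg adjustment over the 11 pairs compared. With 3 libraries 0.25 is the smallest p this test can give, so the p says little and the separation rests on ranges that do not overlap.

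Of the summed TPM of the 4 receptors, 68.7 ± 2.03 TPM, FGFR1 made up 53.9 ± 0.795%, FGFR3 31.8 ± 0.378%, FGFR4 13.6 ± 0.358% and FGFR2 0.653 ± 0.166% (SD, n = 3). The deposited tables also give coverage, the mean read depth over a gene, which did not keep the same ratio to TPM in every gene. By coverage the share of FGFR1 fell to 47.2 ± 0.567%, and FGFR3 and FGFR4 rose to 35.8 ± 0.601% and 16.6 ± 0.0942%. The order was the same on both scales. By coverage FGFR1 was 131 ± 13.9 times FGFR2, more than by TPM.

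**Figure D2:**
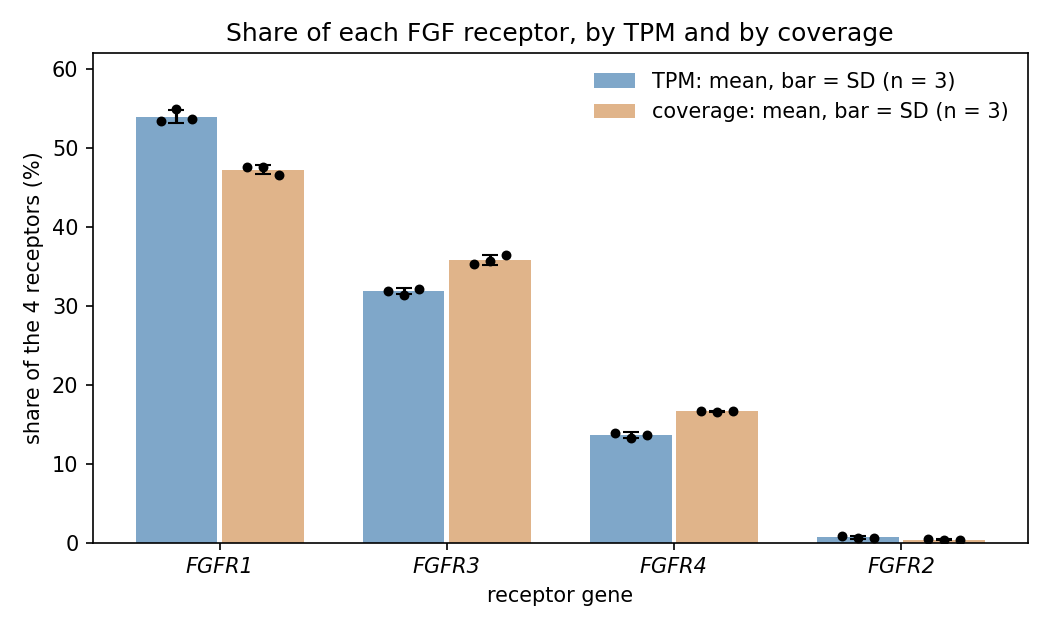
Share of each FGF receptor in the sum of the 4 receptors (y axis, percent), by TPM and by coverage. Bars are means, error bars are SD (n = 3) and points are the 3 libraries; FGFR1 has the largest share on both scales, 53.9% by TPM and 47.2% by coverage.

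The receptors were also set beside 28 other receptor tyrosine kinases picked by name. Of these, 12 had at least 1 TPM in every library, or 42.9%, against 59.5% of protein-coding rows. This list is not the whole class, so the ranks below hold only within it. Among these 32 kinases FGFR1 ranked 4th by mean TPM, after EPHA2 (105 ± 1.10 TPM), EGFR (97.6 ± 6.80 TPM) and IGF1R (46.3 ± 6.77 TPM). MET, the receptor for hepatocyte growth factor, came next with 35.1 ± 2.38 TPM, and its values of 33.1 to 37.7 TPM overlapped those of FGFR1. FGFR3 ranked 8th and overlapped MST1R, a relative of MET, which had 21.4 ± 0.918 TPM. FGFR4 ranked 13th, and its range of 9.07 to 9.65 TPM overlapped that of INSR, the insulin receptor, at 7.93 to 9.12 TPM. FGFR2 ranked 17th, and its values overlapped those of DDR2, ERBB3 and ERBB4, which were all below 1 TPM. PDGFRA, FLT1, KDR and RET were listed at 0 in all 3 libraries. By mean coverage the order changed, and FGFR1 ranked 3rd, after EPHA2 and EPHB4 and before EGFR, with FGFR3 5th, FGFR4 9th and FGFR2 18th. IGF1R, 3rd by TPM, was 14th by coverage.

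**Figure D3:**
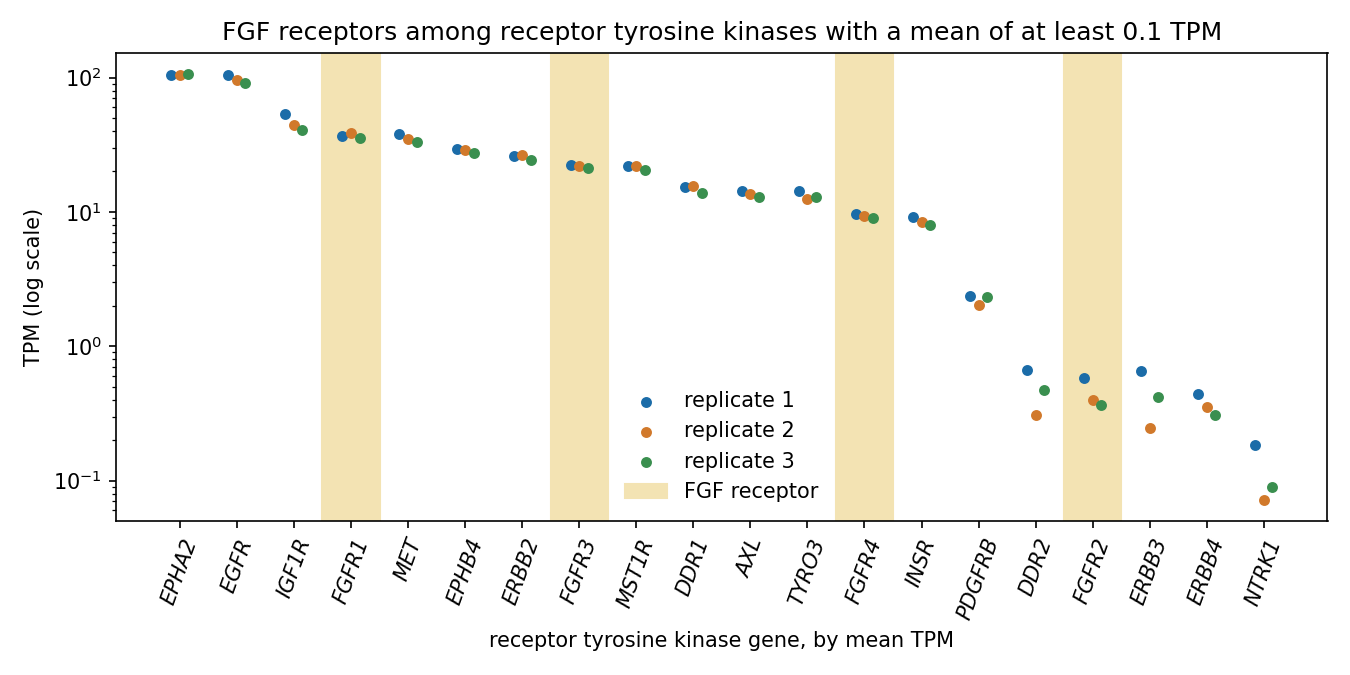
TPM (y axis, log scale) in replicates 1, 2 and 3 of the listed receptor tyrosine kinases with a mean of at least 0.1 TPM. Genes are ordered by mean, with FGF receptors shaded. By TPM FGFR1 ranks 4th of 32, FGFR3 8th, FGFR4 13th and FGFR2 17th; a value of 0 cannot be drawn on this axis and none occurs in the genes shown.

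Among the ligands, FGF2 was the only one of the 3 above 1 TPM. FGF2, basic FGF, is a growth factor for fibroblasts and vessels that leaves cells without a signal peptide, and it lies at chr4:122826708-122898236 on the plus strand. It had 16.05, 15.1 and 14.1 TPM in replicates 1, 2 and 3, or 15.1 ± 0.961 TPM (SD, n = 3), and exceeded 49.5% of the genes whose mean reached 1 TPM. The row of NUDT6, a gene on the opposite strand, overlaps that of FGF2 over 5593 bp, from chr4:122892644-122898236. NUDT6 had 1.89, 1.75 and 1.04 TPM, or 1.56 ± 0.457 TPM (SD, n = 3), below FGF2 in every library. Whether the counting used strand is not given in the sources used here, so reads of the shared part cannot be told apart between FGF2 and NUDT6.

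FGF19 was listed at 0 in replicates 1 and 2 and at 0.0270 TPM in replicate 3. Its row is chr11:69698238-69704022 on the minus strand and has the ends of a GENCODE v44 transcript with 3 exons and 1821 bases. Coverage times this length gave 270 bases in replicate 3, less than the 300 bases of a full pair of 150-base reads. In replicates 1 and 2, where no base was counted, up to 3 read pairs would have been compatible with a 0, which for full pairs is 0.0788 and 0.0805 TPM. These limits cover counting error only.

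FGF21, at chr19:48755559-48758330 on the plus strand, was listed at 0.102 TPM in replicate 1 and at 0 in replicates 2 and 3. Its 0.643 of coverage in replicate 1 times 1312 bases, the exons of a GENCODE v44 transcript that lie within the row, gave 843 bases, or 2.81 full read pairs. The limit that 3 read pairs set on a 0 was 0.112 TPM in replicate 2 and 0.125 TPM in replicate 3, above the value seen in replicate 1. FGF21 and FGF19 thus had the bases of fewer than 3 full read pairs in any library, where trimming may have made the pairs shorter and more numerous, and cannot be ordered at this depth (p = 1.0, exact permutation of signs). FGF2 was above both in 3 of 3 libraries, with p = 0.25 in the same permutation test, and no ratio is given because both were at 0 in 2 libraries.

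KLB, at chr4:39406930-39451533 on the plus strand, had 0.483, 0.440 and 0.303 TPM in replicates 1, 2 and 3, or 0.409 ± 0.0940 TPM (SD, n = 3). Its transcript in GENCODE v44 has the ends of the row, 5 exons and 6002 bases. Coverage of 3.03, 2.70 and 1.67 over this length gave 18194, 16202 and 10003 bases, the bases of 60.6, 54.0 and 33.3 full read pairs. KLB was therefore above 0 in each library with more than a few reads, unlike FGF19 and FGF21, but at a low level. FGFR4 was 23.7 ± 5.45 times KLB by TPM (SD, n = 3), or 20.0, 21.1 and 29.9 times in replicates 1, 2 and 3, and 2.88 ± 0.06 above it on the log2(TPM + 1) scale (p = 0.25, exact permutation of signs, 3 of 3 libraries).

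KL, at chr13:33016063-33066143 on the plus strand, had 0.0885, 0.0613 and 0.115 TPM in replicates 1, 2 and 3, or 0.0883 ± 0.0269 TPM (SD, n = 3). KLB exceeded KL in 3 of 3 libraries, by 0.37 ± 0.13 on the log2(TPM + 1) scale (p = 0.25 in the exact sign-flip permutation test). The size of this difference depends on the scale, since KLB was 5.09 ± 2.29 times KL by TPM and 42.4 ± 19.1 times by coverage (SD, n = 3). For KLB, FGF19 and FGF21, where they were above 0, coverage divided by FPKM was 13.3, 12.8 and 11.5 in replicates 1, 2 and 3. These were also the highest values of each library among rows with an FPKM above 1. Relative to KLB, this quotient was 0.120 for KL in every library, 0.437 ± 0.0472 for FGFR2, 0.675 ± 0.0201 for FGFR1, 0.867 ± 0.00245 for FGFR3, 0.943 ± 0.0114 for FGFR4 and 0.982 for FGF2 in every library (SD, n = 3). Genes with a low quotient stand lower by coverage than by TPM, and why the quotient differs between genes was not tested.

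From the highest to the lowest mean TPM the order was FGFR1, FGFR3, FGF2, FGFR4, FGFR2, KLB, KL, FGF21 and FGF19. Neighbours among FGFR1, FGFR3, FGF2 and FGFR4 did not overlap, and neither did FGFR4 and FGFR2, or KLB and KL. FGFR2 and KLB overlapped by TPM, at 0.366 to 0.585 and 0.303 to 0.483 TPM. By coverage KLB stood above FGFR2 without overlap, at 1.67 to 3.03 against 0.945 to 1.41. KL and FGF21 overlapped on both scales, as did FGF21 and FGF19. By mean coverage FGF21, above 0 in replicate 1 alone, stood above KL, at 0.214 against 0.0626. The coefficient of variation between libraries was 3.93% for FGFR1, 2.03% for FGFR3 and 6.36% for FGF2, where the median of the 8419 genes whose mean reached 10 TPM was 4.88%. It was 3.12% for FGFR4, where the median of the 5334 genes from 1 to 10 TPM was 9.16%. FGFR4, at a mean of 9.34 TPM, lies near the upper end of that group, and the group above it had the median of 4.88%. FGFR2 and KLB varied by 26.4% and 23.0%, and the median of the 4968 genes from 0.1 to 1 TPM was 31.6%.

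The genes most like the leading receptor and ligand were found by Euclidean distance in log2(TPM + 1) over the 3 libraries, among 39319 other rows. For FGFR1 they were NECAP2, ACADM and TCIRG1, at distances of 0.028, 0.031 and 0.032. For FGF2 they were SLC35E2B, PAXBP1 and CLCF1, at distances of 0.0050, 0.017 and 0.019. With 3 libraries of 1 condition this likeness is one of level.

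Sequence upstream of the start was compared next, since it is a feature that the choice of genes did not use. CpG, a C followed by G, marks the promoters of many broadly expressed genes. RefSeq promoters (GRCh38.p14) matched 7 of the 9 genes, with FGFR1 and FGF19 unmatched, and the RefSeq start nearest the start of the deposited row was used. That start lay at the row's start for KLB, 6 bases before it for FGFR3 and 35 bases before it for FGF21, and it lay within the row by 14 bases for FGFR2, 43 for FGFR4, 123 for FGF2 and 360 for KL, so that the bases counted for these 4 lie partly, and for KL wholly, inside the row. In the 250 bases before the RefSeq start, FGFR2 had 42 CpG, FGFR3 40, KL 38, FGF2 33, FGFR4 24, KLB 5 and FGF21 0. The median of all 35116 promoters was 11, with quartiles of 3 and 23, and 93.9% held at least 1. A high CpG number was thus found both in FGFR3, FGF2 and FGFR4 and in FGFR2 and KL, which were below 1 TPM.

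The last 100 bases before the RefSeq start are shown for FGFR3, an expressed gene with a high CpG number, and for KLB and FGF21, the members with the fewest CpG, with each CpG in capitals. They hold 17, 1 and 0 CpG in this order.
FGFR3, chr4:1793193-1793292, plus strand: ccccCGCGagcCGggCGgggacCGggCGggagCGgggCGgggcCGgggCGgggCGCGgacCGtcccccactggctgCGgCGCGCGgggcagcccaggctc
KLB, chr4:39406830-39406929, plus strand: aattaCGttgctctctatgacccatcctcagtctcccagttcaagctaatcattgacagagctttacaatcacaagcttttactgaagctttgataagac
FGF21, chr19:48755424-48755523, plus strand: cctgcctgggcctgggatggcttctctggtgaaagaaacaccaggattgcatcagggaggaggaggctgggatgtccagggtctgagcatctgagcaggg

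The other genes of the pathway are given by list, and their counts stand beside the 59.5% of protein-coding rows with at least 1 TPM in every library. None of 15 other FGF ligands had at least 1 TPM in every library. The highest were FGF22 with 0.877, 1.09 and 0.912 TPM and FGF18 with 0.348 ± 0.173 TPM (SD, n = 3). FGF3, FGF4, FGF5, FGF6, FGF10, FGF16, FGF20 and FGF23, the hormone that KL serves, were listed at 0 in all 3 libraries. The median of this list was 0 TPM, against 0.0619 TPM over all gene rows and 4.99 TPM over protein-coding rows. FGF2 was the only gene among these and the 3 ligands above that exceeded 1 TPM in every library. Of 4 intracellular FGFs, which are not secreted, FGF11 had 3.95 ± 0.271 and FGF12 had 2.44 ± 0.275 TPM (SD, n = 3), and FGF13 and FGF14 were below 1 TPM.

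Of 8 partners of FGFs outside the cell, 3 had at least 1 TPM in every library, and the median was 0.685 TPM. FGFRL1, a receptor without a kinase domain, had 20.1 ± 1.52 TPM, and ANOS1, anosmin, which binds FGFR1, had 14.1 ± 0.994 TPM. FGFBP1, a carrier that releases FGFs from the matrix, had 10.9 ± 0.908 TPM (SD, n = 3). FGFBP2, FLRT2 and FLRT3 were listed at 0 in all 3 libraries. Among 19 genes for heparan sulfate proteins and enzymes, 14 had at least 1 TPM in every library and 13 at least 10, with a median of 16.3 TPM. The highest were the core proteins SDC4, with 98.0 ± 7.78 TPM, and GPC1, with 95.6 ± 6.48 TPM (SD, n = 3). GPC3, a glypican that many liver cancers express, was listed at 0 in all 3, as were GPC6 and HS3ST1.

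Of 19 adaptors and kinases of the cascade, 18 had at least 1 TPM in every library and 13 at least 10, with a median of 54.5 TPM against 4.99 TPM over protein-coding rows. MAP2K2, which activates ERK, had 191 ± 11.4 TPM and ARAF, a RAF kinase, had 110 ± 2.67 TPM. FRS2, the docking protein of FGF receptors, was lower at 8.30 ± 0.694 TPM, and GAB1, an adaptor that joins it, was the exception at 0.868 ± 0.0649 TPM (SD, n = 3). Feedback inhibitors had at least 1 TPM in every library in 7 of 12 genes, or 58.3%, near the 59.5% of protein-coding rows, and their median of 2.87 TPM was below the 4.99 TPM of those rows. The ERK phosphatases DUSP5 and DUSP4 led with 29.1 ± 3.71 and 22.2 ± 0.788 TPM, while DUSP6, another ERK phosphatase, had 0.771 ± 0.0663 TPM (SD, n = 3). SPRY1, SPRY3, SPRY4 and IL17RD were also below 1 TPM in every library. Of 5 transcription factors that respond to FGF, 4 had at least 1 TPM in every library, led by FOSL1 with 51.1 ± 0.652 TPM and ETV4 with 13.6 ± 0.547 TPM, and ETV1 had 0.407 ± 0.0678 TPM (SD, n = 3). The median of these 5 was 4.39 TPM.

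A list of 9 genes of bile acid synthesis, sensing and transport, from liver and gut, was mostly below 1 TPM. Only 1 of 9 had at least 1 TPM in every library, and the median was 0.0882 TPM. That gene was SLC51B, a subunit of a bile acid exporter, with 14.5, 15.7 and 14.04 TPM, while its partner subunit SLC51A had 0.373 ± 0.0156 TPM (SD, n = 3). NR1H4, the bile acid receptor FXR, followed with 0.699 ± 0.0907 TPM (SD, n = 3). CYP7A1 was at 0.0169 TPM in replicate 2 and at 0 in the other 2 libraries, and CYP8B1 and NR0B2 were listed at 0 in all 3.

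**Figure D4:**
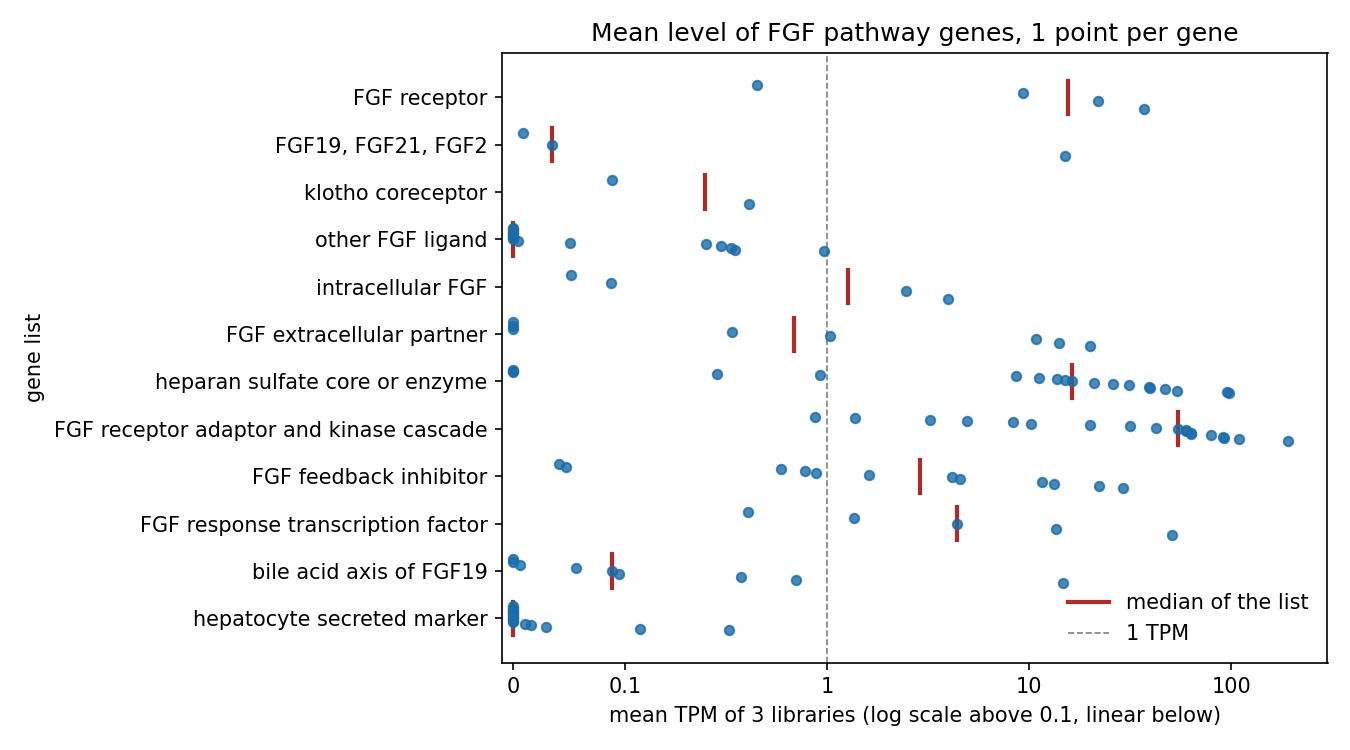
Mean TPM over 3 libraries (x axis, log scale above 0.1 TPM and linear below) of each gene in the FGF lists and the hepatocyte list, with 1 point per gene, the list median in red and a dashed line at 1 TPM. The list medians run from 0 TPM for other FGF ligands and hepatocyte genes to 54.5 TPM for the adaptors and kinases.

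FGF19 lies in band q13 of chromosome 11, a region that is gained in some liver cancers together with CCND1, the gene for cyclin D1. CCND1 ends 43.8 kb from FGF19 and had 116, 109 and 108 TPM in replicates 1, 2 and 3, while FGF19 was at or near 0. LTO1, between them, had 12.3 ± 2.46 TPM (SD, n = 3). On the other side FGF4 and FGF3 were listed at 0 in all 3 libraries, and further away FADD had 63.4 ± 1.85, PPFIA1 37.9 ± 1.31 and CTTN 265 ± 3.61 TPM (SD, n = 3). ANO1, on the same side as FADD, had 0.445 ± 0.0407 TPM, and MYEOV, beyond CCND1, had 0.318 ± 0.0565 TPM (SD, n = 3). Of the 9 listed neighbours, 5 had at least 1 TPM in every library, or 55.6%, near the 59.5% of protein-coding rows, with a median of 12.3 TPM. Whether the region has extra copies was not tested.

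**Figure D5:**
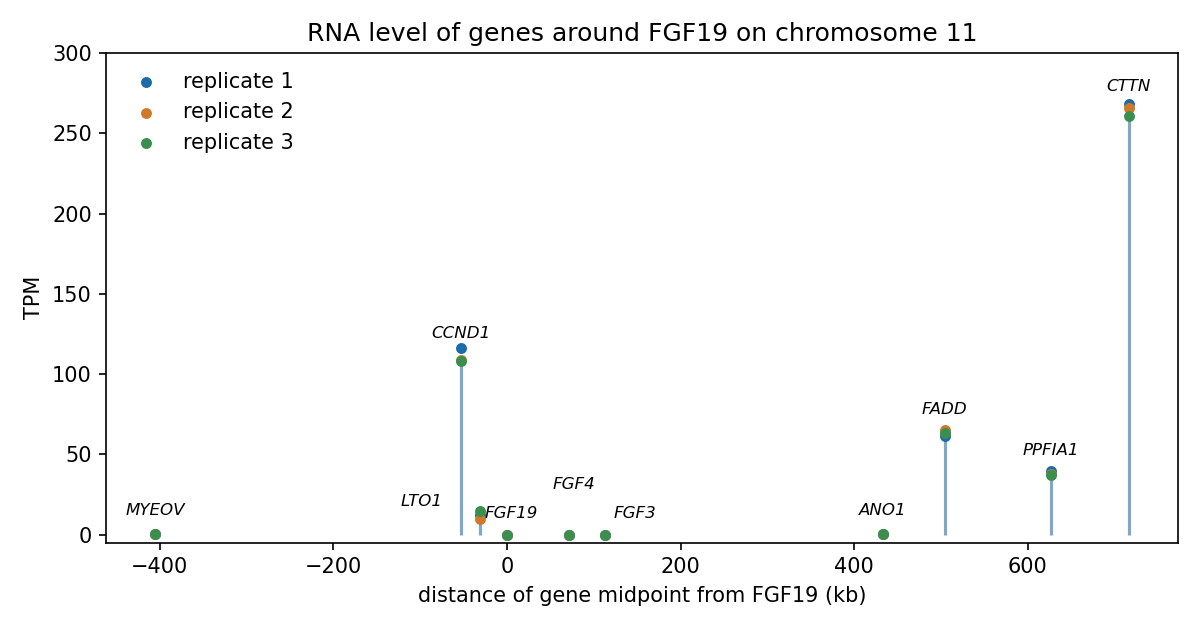
TPM (y axis) in replicates 1, 2 and 3 (points) of FGF19 and 9 neighbours on chromosome 11, by distance of the gene midpoint from that of FGF19 (x axis, kb), with lines up to the mean. FGF19, FGF4 and FGF3 lie at or near 0 between CCND1, at 108 to 116 TPM, and FADD, at 61.6 to 65.3 TPM.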

How the data were processed

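RNA of 3 libraries labelled wild-type HepG2 was sequenced by the authors with 150 bp paired-end reads. Per the labels, reads were checked with FastQC 0.11.8, trimmed with Trim Galore 0.6.2, mapped to GRCh38 with STAR 2.6.1a and quantified with StringTie; its version, annotation and strand setting are not given in the sources used here. The deposited tables hold 1 row per gene with the coverage (mean read depth, not scaled for library size), FPKM and TPM that the authors computed. The tables were joined by name, reference, strand and position, which kept 43389 rows, and 39320 on references with plain names (no alternative or unplaced contigs) were used.

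No read counts were given. Coverage times transcript length was within 0.05 of a whole number of bases in 55.3% of 9333 values of 3552 genes with 1 RefSeq transcript. Bases are given only for members where this held in every library, which were FGF19, FGF21 and KLB. Since this was the rule of choice, it is no check on those bases, and values of 0 for FGF19 and FGF21 meet it always. Depth relative to replicate 3, from coverage per FPKM of KLB, was 1.16 in replicate 1 and 1.12 in replicate 2. Pearson's r of log2(TPM + 1) between libraries was 0.991 to 0.992 across 13753 genes.

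A gene counted as expressed with at least 1 TPM in every library. Pairs of members were compared by log2(TPM + 1) with a sign-flip test over libraries. Alternatives were a pseudocount of 0.1 in place of 1, other minimum levels, FPKM or coverage in place of TPM, other scalings and leaving out each library. The range calculation was tested on simulated data. Members and lists were chosen with earlier results of these data known. The genes named are the members, the 2 highest and those at 0 in each list, overlapping rows, nearest rows and markers. Of the overlapping rows, MIR5591, within KLB, was at 0 in all 3 libraries and is named only here. FRS2, GAB1, FGFBP1, DUSP6, SPRY1, SPRY3, SPRY4, IL17RD, ETV1, SLC51A and CYP7A1 were named after their values were seen. So were FGF13, FGF14, MYEOV, ANO1, FADD, PPFIA1, LTO1 and the kinases beside each receptor. Python 3.11.15, numpy 2.4.6, pandas 2.3.3 and matplotlib 3.10.9 were used.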

Additional observations from a re-analysis of the deposited data

How the results depend on the processing

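Scaling without mitochondrially encoded genes, which took 19.9 to 20.2% of all TPM, raised the mean of FGFR1 to 46.4, FGFR3 to 27.4, FGF2 to 18.9, FGFR4 to 11.7 and KLB to 0.511 TPM. The other members moved by less than 1 SD, and median-of-ratios scaling moved no member's mean by 1 SD. Of the 11 pairs, 10 kept their direction with a pseudocount of 0.1, with FPKM, with coverage and with each replicate left out. The exception was FGF19 to FGF21, whose mean log2 difference of -0.0341 ran from -0.0704 to 0.0192 with each replicate left out and turned sign without replicate 1. The number of members with a range above 1 was 0, and 1 with a pseudocount of 0.1, where it was FGF21. The number of members with at least 1 TPM in every library was 4, against 6 when the required level was 0.1 TPM and 3 when it was 10 TPM. At 0.1 TPM, other FGF ligands passed in 5 genes instead of 0, extracellular partners in 5 instead of 3 and bile acid genes in 3 instead of 1. At 10 TPM, intracellular FGFs passed in 0 instead of 2, feedback inhibitors in 4 instead of 7 and transcription factors in 2 instead of 4. The share of all gene rows that passes at 0.1 or 10 TPM was not computed. Counts at these levels therefore cannot be set against genes in general. The percentiles of FGFR1, FGFR3, FGF2 and FGFR4 became 90.2, 85.8, 82.3 and 78.0 with no filter on low values, and by coverage those of FGFR3, FGF2 and FGFR4 became 66.9, 61.6 and 49.8. The receptor shares by coverage were an alternative chosen after seeing the data. The kinase ranks by coverage were chosen likewise. No paired analysis was possible because all 3 libraries form a single group, and genes were compared within libraries. The number of reads behind FGFR1, FGFR2, FGFR3, FGFR4, FGF2 and KL is unknown, which limits the low values of FGFR2 and KL most.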
